A study of Rattus norvegicus with 14 samples.

Results

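Ribosomal protein genes encode the protein parts of the cytoplasmic ribosome. They were picked out by their gene symbols in the platform annotation, as symbols that begin with Rpl, Rplp or Rps followed by a number, without the Rps6k kinases and without pseudogene symbols ending in -ps and a number. The pattern matched 70 probes, of which 3 were kinase and 3 were pseudogene probes, so that 64 of the 4952 probes remained. These stand for 63 genes of the 4156 with a symbol, 42 of the large and 21 of the small subunit, and 1 of them, Rpl30, has 2 probes. No measured value entered the choice, so all 63 genes are described. No filter on low values was used.

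The RNA came from small intestine of rats 20 days of age, perfused with solutions labelled HG and HF, each for 4 h or for 20 min. No label says what HG and HF are, and they are read here, from knowledge of the study, as high glucose and high fructose. Each of the 14 arrays had 2 channels, and 5 arrays paired HG and HF samples of 1 number at 4 h, 4 did so at 20 min, and 1 more was a second array of pair 2 at 4 h. Another 3 arrays were self-hybridisations, with 1 RNA of 4 h (1HG, 3HG or 3HF) in each channel, and 1 carried the primers of the labelling kit. All tissue at both times had been perfused, no strain or sex is given here, and the labels do not say whether the numbered pairs were separate animals, so every p-value measures only the spread between these arrays.

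Every value below is a log ratio of the channels, centred on the median of its array and read as log2, with base 2 an assumption. A log ratio gives no level, so the tissue could not be checked for the presence of intestinal markers, and the levels of different genes are not compared. Since HG and HF are set against each other on the array, a ratio above 0 can stand for more RNA with HF or for less with HG. Per the labels channel 1 holds HG and channel 2 HF, and which of them is on top of the ratio is not stated. Slc2a5, the fructose transporter that fructose is known to induce in rat intestine, lay between 1.33 and 1.95 on the 5 arrays at 4 h and at -1.66 on the second array of pair 2, whose title gives the samples added numbers that were read as swapped dyes. At 20 min it lay at -0.38, -0.01, -0.43 and -0.44, and with the same RNA at 0.16, -0.10 and -0.17. Positive values at 4 h are therefore likely HF over HG, the same direction is assumed at 20 min, where Slc2a5 does not show it, and the second array of pair 2 was left out of the tests. A cell that lost or gained mRNA and a change in the mix of cells cannot be told apart in such whole-tissue RNA.

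The ribosome joins a large subunit, which forms the peptide bond, to a small subunit, which reads the mRNA, and cells make their protein parts in matched amounts. Mammalian ribosomal protein mRNAs start with a C followed by an unbroken run of pyrimidines, the 5′ terminal oligopyrimidine or TOP motif, through which mTOR signalling adjusts their translation when nutrients change. In the small intestine the dividing cells of the crypts carry a high demand for new ribosomes, and the absorptive cells of the villus use them to make digestive enzymes and transporters. These genes have many processed pseudogenes in rat, and a probe for one copy can bind transcripts of others.

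The start of the transcript is where these genes look alike, and it is shown here for the 4 members of each subunit with the smallest p in the comparison of 4 h with 20 min and for 3 members below 0 in it. Each line is 30 bases of RefSeq sequence on GRCr8, 15 before and 15 after the annotated start, read 5′ to 3′ along the strand of the gene, with the longest run of C and T in capitals where it reached 5 bases.
Rpl31, chr9:49143096-49143125, plus strand: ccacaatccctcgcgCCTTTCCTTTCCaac
Rpl19, chr10:83519049-83519078, plus strand: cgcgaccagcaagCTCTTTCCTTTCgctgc
Rpl35, chr3:43165907-43165936, minus strand: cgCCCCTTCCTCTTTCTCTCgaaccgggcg
Rpl13, chr19:68062499-68062528, plus strand: ctttgcggtgcccgaTCCTTTCCgctcggc
Rps26, chr7:1643390-1643419, minus strand: gagagccgccgggTCCTCTTTCgagtcttg
Rps15a, chr1:181860270-181860299, minus strand: cggcgTTTTCTTTCCacagtcaccatggtg
Rps27, chr2:177964592-177964621, minus strand: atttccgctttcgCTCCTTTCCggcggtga
Rps19, chr1:89608673-89608702, plus strand: cccgacttgtgcgcccgggaaaccccgtcg
Rps24, chr16:96502-96531, plus strand: tgagcggTCCTCTTTTCCTCCTTTacagct
Rps6, chr5:106420526-106420555, minus strand: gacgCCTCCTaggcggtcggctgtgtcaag
Rpl41, chr7:1563483-1563512, minus strand: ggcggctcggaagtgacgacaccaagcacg

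Of the 63 genes 53 had such a window in the RefSeq table. The longest run of C and T had a median of 10 bases in these 53 and of 4 bases over the 27457 genes of the table, and it reached 8 bases in 37 members, 69.8% of those matched, beside 11.4% of all genes. The motif CTTTC stood in 25 of the 53 windows (47.2%, against 3.62% of all genes), CTCTT in 18 (33.96% against 3.91%) and CTTCC in 16 (30.2% against 6.12%). Overlapping matches of the 3 motifs were each counted. On the opposite strand the shares of the members were 1.89%, 0% and 3.77%, beside 3.77%, 3.80% and 6.85% of all genes. Both subunits had such runs, with a median of 10 bases over 35 large subunit windows and 9.5 over 18 small subunit windows. Rps19 and Rpl41, with no run of 5 bases, show that not every annotated start carries one, and a start that is off by some bases would move the run.

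On pairs 1 to 5 at 4 h most ribosomal protein genes lay on the positive, likely HF, side. Their median log ratio was 0.23 on pair 1, 0.26 on pair 2, 0.18 on pair 3, 0.16 on pair 4 and 0.06 on pair 5, and 51, 54, 54, 50 and 40 of the 63 genes were above 0. At 20 min the medians were 0.04, 0.02, -0.01 and -0.03 on pairs 1 to 4, with 38, 35, 27 and 24 genes above 0. Every median of pairs 1 to 5 at 4 h was above every median at 20 min. On the second array of pair 2, read as swapped dyes, the median was 0.02, with 34 of the 63 genes above 0. With the same RNA in both channels the medians were 0.06 for 1HG, 0.02 for 3HG and 0.02 for 3HF, so pair 5 lay level with 1HG and the other 4 pairs above all 3 same-RNA arrays.

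**Figure D1:**
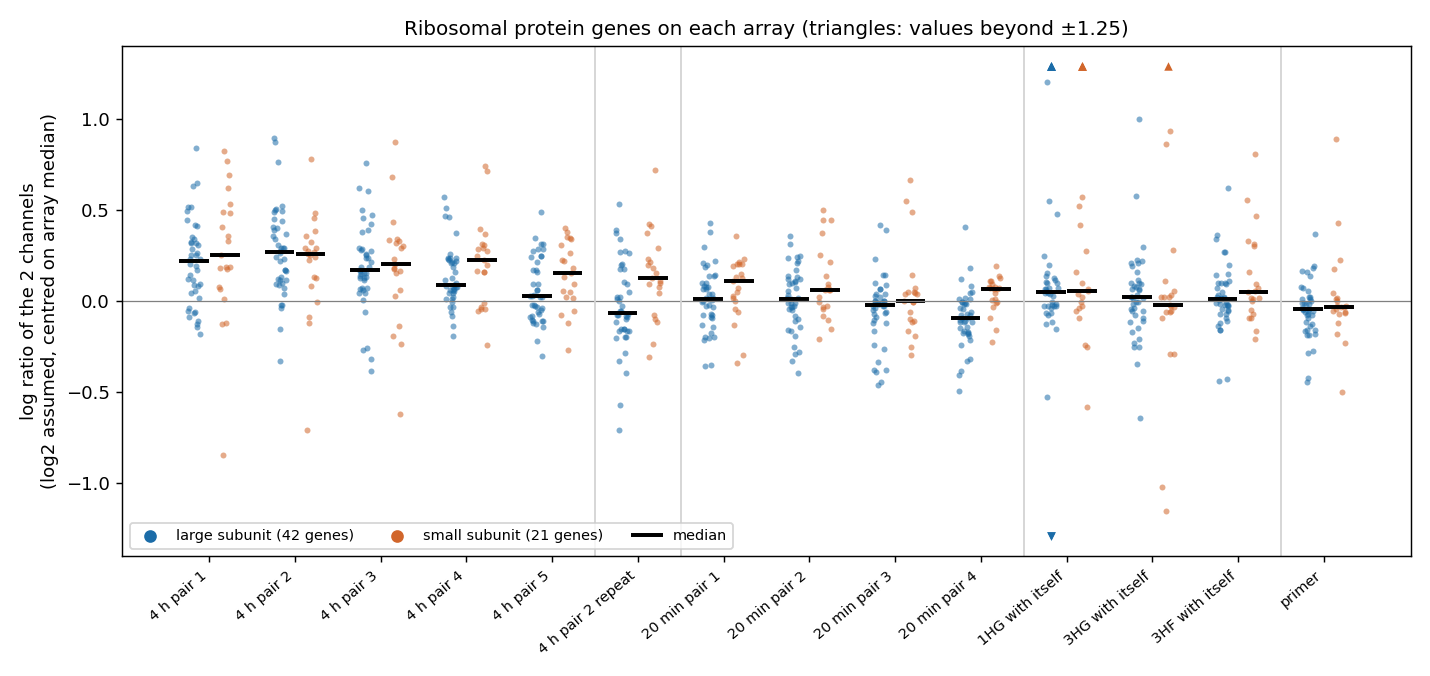
Log ratio (y axis, read as log2 and centred on each array's median) of each ribosomal protein gene on each of the 14 arrays (x axis), for 42 large and 21 small subunit genes, with bars at the medians and triangles for values beyond the axis. At 4 h the large subunit medians run from 0.03 to 0.27 and the small subunit medians from 0.16 to 0.26; at 20 min they run from -0.09 to 0.01 and from 0.00 to 0.11.

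The members were spread less widely than all features at both times. The SD over members was 0.18 to 0.29 on the 5 arrays at 4 h and 0.15 to 0.22 at 20 min, and the SD over all 4682 features was 0.35 to 0.40 and 0.33 to 0.34. With the same RNA in both channels the SD over members was 1.23 on 1HG, 0.37 on 3HG and 0.21 on 3HF. Over all features it was 1.39, 0.34 and 0.30 on these arrays, so the members were wider than all features on 3HG only. On the second array of pair 2 the SD was 0.26 over members and 0.82 over all features.

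Extreme values on 1HG and 3HG touch every comparison with the same-RNA arrays. On 1HG 10 member probes lay beyond 1 in size, all numbered up to 750 or above 4500 in the table, among them Rpl13a at 5.47, Rps3 at 3.63, Rpl17 at 3.49, Rpl12 at 3.41 and Rpl15 at -3.14. On 3HG 3 did, Rps9 at 1.31, Rps6 at -1.15 and Rps3a at -1.02. On 3HF and on the arrays at 4 h and 20 min no member lay beyond 1. Other genes beside them moved too: around the run Rps3, Rpl12, Rps16, Rpl23a and Rpl17, whose mean on 1HG was 3.14, the non-member probes within 10 numbers had a median of 2.99. The sources used here do not say what probe numbers mean on the slide. Differences from the same-RNA arrays of such members rest on 1 array, and where one is given below its value without that array stands beside it.

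**Figure D2:**
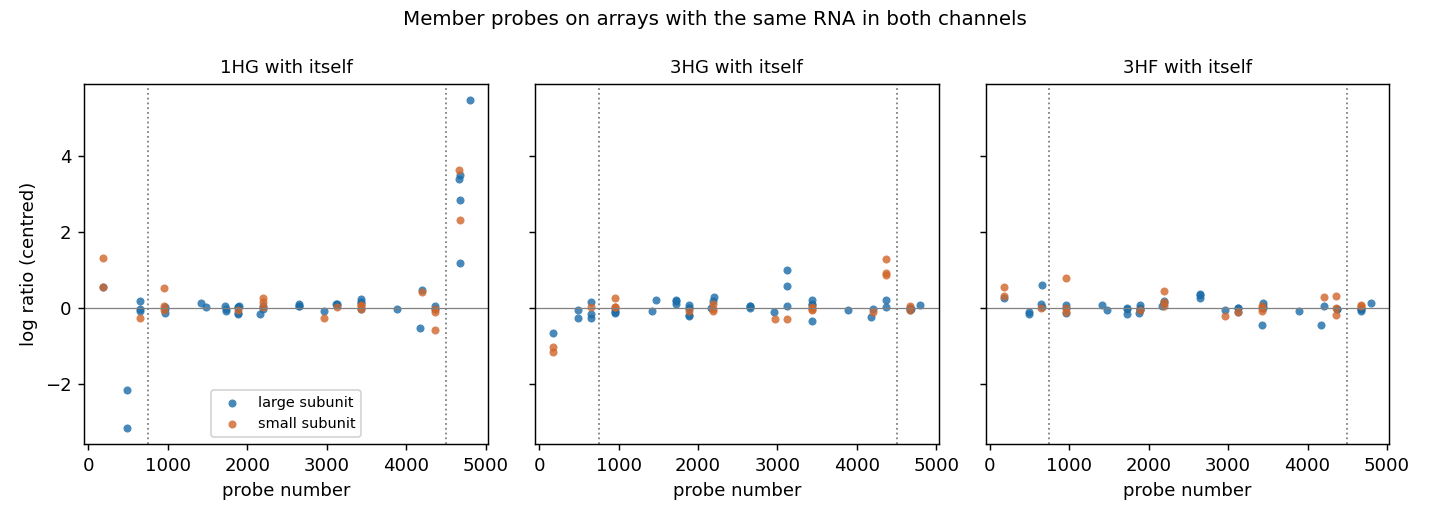
Log ratio (y axis, read as log2, centred) of the 64 member probes against probe number (x axis) on the 3 arrays with the same RNA in both channels. Dotted lines mark probe numbers 750 and 4500; on 1HG the 10 probes beyond 1 in size lie outside these lines, and on 3HF no probe is beyond 1.

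At 4 h against the same-RNA arrays 47 of the 63 members had a difference above 0, where 48.5% of all features did. The median difference was 0.14 for the large and 0.13 for the small subunit, and -0.01 over all features, and the median SE of a member was 0.14. No member passed an adjusted p of 0.05 (limma, Benjamini-Hochberg over 4682 features, of which 0.0641% passed). At an unadjusted p below 0.05, 6 members were higher, 2 of the large and 4 of the small subunit, beside 4.76% of all features, and none was lower beside 5.21%. The count of 6 was 3 without pair 1 and 14 without pair 5, where 9.70% and 10.5% of all features passed that p in either direction. The count of lower members was 7 without 3HG and 6 without 3HF, where 12.3% and 13.2% of all features passed in either direction. The 7 were Rpl12, Rpl13a, Rpl17, Rpl23a, Rps3, Rps16 and Rps6, each beyond 1 on 1HG. Without 1HG 52 of the 63 differences were above 0 and the small subunit median was 0.20.

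Rpl19, a large subunit protein that reaches over to the small subunit, had the smallest p. It lay at 0.29, 0.07, 0.24, 0.08 and 0.03 on pairs 1 to 5 at 4 h, and at -0.03, -0.34 and -0.43 with the same RNA in both channels. The groups did not overlap, and the difference was 0.41 ± 0.11 (SE, 5 against 3 arrays; limma adjusted p = 0.256). Its mean was 0.14 at 4 h and -0.27 with the same RNA, so the larger share of the gap lay on the same-RNA side. Groups did not overlap for 3 small subunit genes besides, Rps15a, Rps19 and Rps2, and 3.31% of all features were separated in that direction.

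Among small subunit genes Rps26, which lines the channel where mRNA leaves the ribosome, was at 0.49, 0.12, 0.32, 0.37 and 0.02 at 4 h and at 0.02, -0.29 and -0.09 with the same RNA. One value at 4 h lay just below the highest same-RNA value. The difference was 0.38 ± 0.12 (limma adjusted p = 0.358). Rps15a was at 0.53, 0.23, 0.20, 0.16 and 0.26 at 4 h and at -0.01, -0.04 and 0.02 with the same RNA, with no overlap and a difference of 0.29 ± 0.10 (limma adjusted p = 0.398). Rps19, the gene most often mutated in Diamond-Blackfan anaemia, was at 0.49, 0.26, 0.23, 0.16 and 0.22 against 0.10, 0.02 and 0.05, again without overlap, and differed by 0.21 ± 0.09 (limma adjusted p = 0.466). Rps13 differed by 0.37 ± 0.15 with overlap. The fold, if the base is 2, was 1.16 for Rps19 and 1.33 for Rpl19.

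Other large subunit values in this comparison had wide errors. Rpl35a differed by 0.85 ± 0.38 and Rpl15 by 1.11 ± 0.52, and without 1HG, where they lay at -2.15 and -3.14, these were 0.15 and 0.13. Rpl13a, which also acts outside the ribosome as a repressor of inflammatory mRNAs, differed by -1.82 ± 0.94, and by -0.03 without 1HG. At 20 min its difference from the same-RNA arrays was -1.91 ± 0.99, and -0.12 without 1HG. On the 5 arrays at 4 h it was at 0.63, 0.12, -0.26, -0.08 and 0.03, so its own values at 4 h scattered around 0. Rpl9 differed by 0.25 ± 0.12 and Rpl36al1 by 0.28 ± 0.17, both with overlap. The stalk proteins Rplp0 and Rplp2 differed by 0.09 ± 0.09 and 0.29 ± 0.14, and Rpl5 and Rpl11, which bind Mdm2 outside the ribosome, by 0.22 ± 0.20 and 0.06 ± 0.09, none past the adjusted threshold.

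At 20 min against the same-RNA arrays the members leaned slightly the other way, and the large subunit more than the small. Of 42 large subunit genes 15 had a difference above 0, and of 21 small subunit genes 11 did, where 50.6% of all features did. The medians were -0.08 and 0.0028, with a median over all features of 0.0022. No member passed the adjusted threshold (limma; 0.0427% of all features did), and 3 passed an unadjusted p of 0.05, of which 1 was higher and 2 were lower, beside 2.58% and 2.63% of all features. The number of lower members at that unadjusted p was 4 without 1HG, 8 without 3HG and 11 without 3HF. Of all features 3.99%, 9.27% and 10.3% passed that p in these fits, in either direction. The 8 were Rpl12, Rpl13a, Rpl17, Rpl23a, Rplp1, Rps3, Rps16 and Rps6, each beyond 1 on 1HG. In 8 large subunit and 0 small subunit genes all 4 arrays at 20 min lay below all 3 same-RNA arrays, beside 3.44% of all features.

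The 2 members lower at an unadjusted limma p below 0.05 have adjacent probe numbers. Rpl35, at the rim of the tunnel through which the new protein leaves, was at -0.36, -0.29, -0.44 and -0.49 on pairs 1 to 4 and at -0.03, 0.21 and 0.02 with the same RNA, a difference of -0.46 ± 0.17 (limma adjusted p = 0.801). Rpl31, which sits at the same tunnel, was at -0.20, -0.25, -0.46 and -0.38 against 0.06, 0.11 and -0.01, a difference of -0.38 ± 0.14. Neither gene's arrays overlapped between the groups. Rpl36 differed by -0.19 ± 0.10 with overlap. Rplp0 and Rplp2 differed by 0.07 ± 0.10 and -0.12 ± 0.15, and Rpl5 and Rpl11 by -0.21 ± 0.21 and 0.02 ± 0.09.

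Rpl41, the smallest protein of the ribosome, had the opposite sign. It was at 0.14, -0.14, -0.03 and -0.12 at 20 min and at -0.53, -0.23 and -0.44 with the same RNA, so its difference of 0.36 ± 0.15 (limma adjusted p = 0.801) arose with values near 0 at 20 min and negative ones on the same-RNA arrays.

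The comparison of 4 h with 20 min leaves the same-RNA arrays out of the difference, though they enter the estimate of the spread. Here 57 of 63 members were above 0, 40 of 42 in the large and 17 of 21 in the small subunit, where 48% of all features were. The median difference was 0.18 for the large and 0.14 for the small subunit and -0.01 over all features, and without pair 4 of 20 min the order of the subunits turned, at 0.15 and 0.19. No member passed the adjusted threshold in limma, which 0.598% of the features did. At an unadjusted p below 0.05 limma gave 17 members higher, 13 of the large and 4 of the small subunit, beside 6.3% of all features, and 0 lower beside 7.22%. That count of 17 was 8 without pair 4 of 20 min, and between 12 and 22 without any 1 other array of 4 h or 20 min. The shares of all features at that p, in either direction, were 11.55% and between 11.32% and 13.97%. In 10 members, 7 large and 3 small, all 5 arrays at 4 h lay above all 4 at 20 min (3.42% of all features), and in none were they below (3.12%).

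Rpl31 had the smallest p. It was at 0.25, 0.51, 0.50, 0.10 and -0.06 on pairs 1 to 5 at 4 h and at -0.20, -0.25, -0.46 and -0.38 at 20 min. All 4 h values were above all 20 min values, with pair 5 closest to them. The difference was 0.58 ± 0.12 (SE, 5 against 4 arrays; limma adjusted p = 0.0684), a ratio of 1.499-fold if the base is 2.

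Rpl35 and Rpl13, the large subunit genes next to it in probe number, had like values. Rpl35 was at 0.42, 0.52, 0.43, 0.01 and -0.22 at 4 h and differed by 0.63 ± 0.15 (limma adjusted p = 0.0991). Rpl13 was at 0.52, 0.50, 0.46, 0.06 and -0.10 at 4 h and at -0.20, -0.28, -0.38 and -0.32 at 20 min, a difference of 0.58 ± 0.14 (limma adjusted p = 0.116). In all 3 genes pairs 1 to 3 were high, pair 4 between 0.01 and 0.10 and pair 5 below 0, and no array at 4 h reached down to those at 20 min. Without pair 5 of 4 h they were past the adjusted threshold, at limma adjusted p of 0.0314 for Rpl31, 0.0295 for Rpl35 and 0.0443 for Rpl13. Without pair 3 of 20 min the lowest adjusted p of any member was 0.197.

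Rpl19 was at -0.35, -0.39, -0.33 and -0.18 at 20 min, below each of its values at 4 h given above. The difference was 0.45 ± 0.10 (limma adjusted p = 0.0888), and an exact permutation test over the 9 arrays, two-sided and not adjusted for the number of members, gave p = 0.00794, the smallest that 5 against 4 arrays can give. Pair 5 of 4 h was its lowest array at that time, as for Rpl31. Rpl5, which carries the 5S rRNA into the ribosome and restrains Mdm2 when assembly fails, was at 0.23, 0.87, 0.62, 0.19 and -0.14 at 4 h and at 0.08, 0.12, -0.16 and -0.33 at 20 min. Its difference of 0.43 ± 0.19 (limma adjusted p = 0.339) came with overlap, since pair 5 fell among the 20 min arrays.

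In the small subunit Rps26 had the smallest p. It was at -0.0007, -0.0041, -0.19 and -0.16 at 20 min and differed by 0.35 ± 0.11 (limma adjusted p = 0.197), without overlap. Rps19 was at 0.05, -0.03, 0.05 and 0.08 at 20 min and differed by 0.24 ± 0.08 (limma adjusted p = 0.231), also without overlap. Rps15a differed by 0.24 ± 0.10 and Rps27, a zinc finger protein, by 0.34 ± 0.14 (limma adjusted p = 0.302 and 0.334), each with overlap. Rps10, at 0.77, 0.78, 0.87, 0.72 and 0.18 at 4 h and at 0.36, 0.37, 0.49 and 0.09 at 20 min, was also positive with the same RNA, at 0.52, 0.28 and 0.81, and differed by 0.34 ± 0.16 with overlap.

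The members below 0 in this comparison were few and close to their errors. They were Rps9 at -0.19 ± 0.33, Rps29 at -0.18 ± 0.16, Rpl41 at -0.09 ± 0.13, Rps24 and Rps6 at -0.0038 each with SE of 0.17 and 0.37, and Rpl37l1. Rps29 was at -0.85, -0.01, -0.23, -0.01 and 0.02 on pairs 1 to 5 at 4 h and between -0.06 and 0.01 at 20 min, so that its difference rested on pairs 1 and 3. Rpl41 was at -0.18, -0.33, -0.32, -0.06 and 0.25 at 4 h, the reverse of the order over pairs seen in Rpl31. The sign of Rps24, Rps6 and Rpl37l1 changed with the scaling of the arrays or with single arrays left out.

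**Figure D3:**
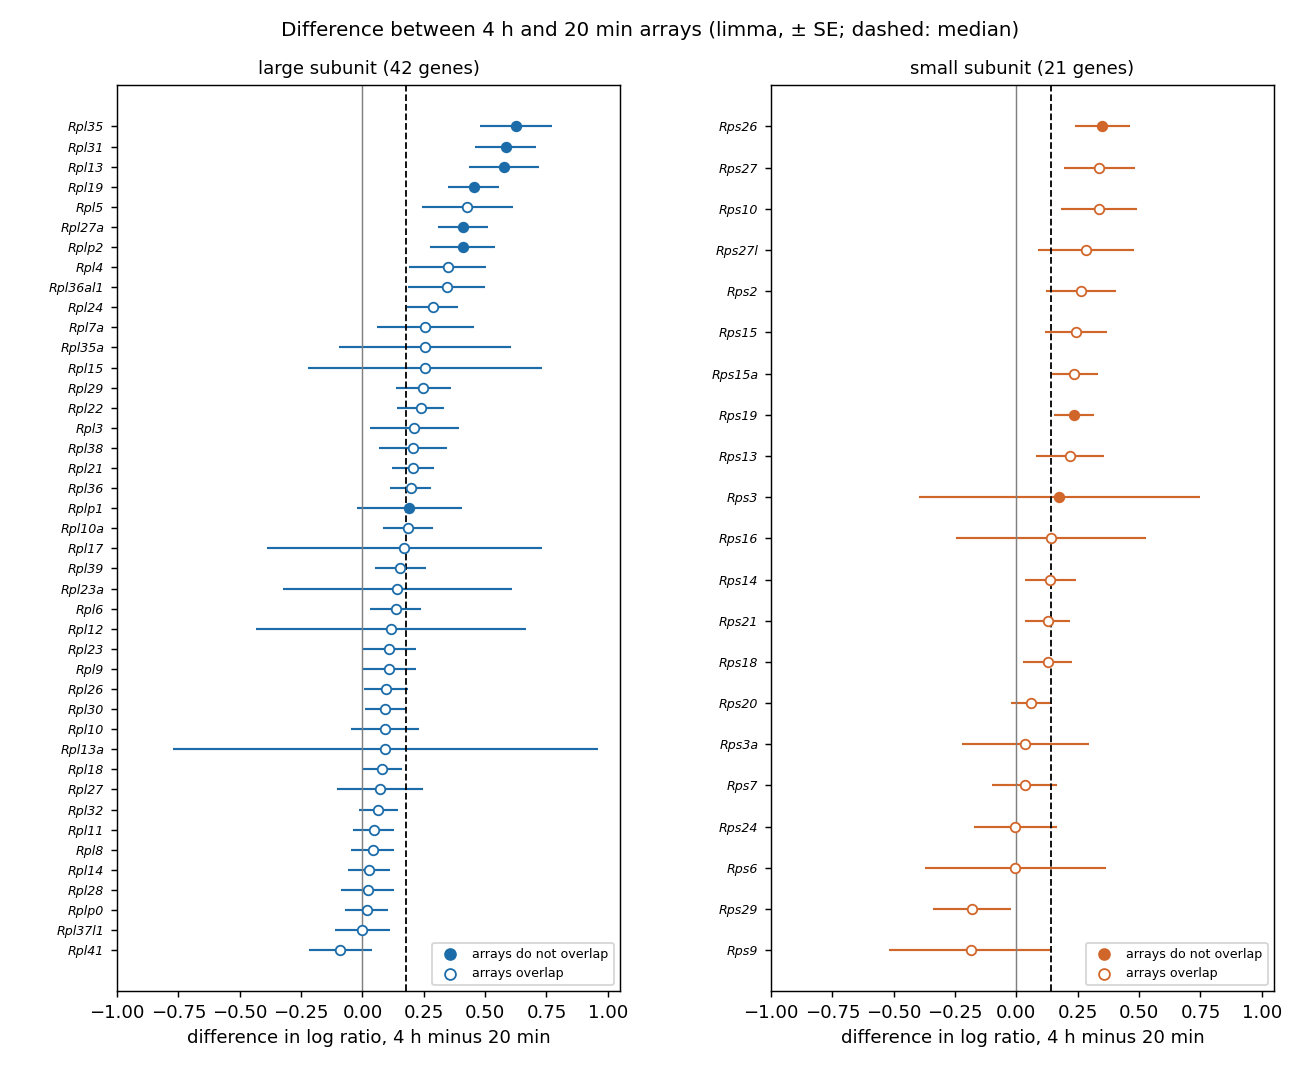
Difference in log ratio between 4 h (5 arrays) and 20 min (4 arrays) for each gene (x axis, read as log2), as limma estimate ± SE, for the large (left) and small (right) subunit; filled points mark genes whose arrays do not overlap and the dashed line is the median. Of 63 genes 57 lie above 0, led by Rpl35 at 0.63, and the medians are 0.18 and 0.14.

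The proteins of the stalk, which draws elongation factors to the ribosome, had unlike values. Rplp2 was at 0.84, 0.41, 0.29, 0.23 and 0.09 at 4 h and at 0.02, -0.03, -0.12 and -0.01 at 20 min, which did not overlap, and differed by 0.41 ± 0.13 (limma adjusted p = 0.198). Rplp1 differed by 0.19 ± 0.21, also without overlap, and its value of 1.201 on 1HG enters the estimate of its error. Rplp0, the base of the stalk, was at 0.14, 0.29, 0.15, -0.03 and 0.02 at 4 h and at 0.04, 0.17, 0.14 and 0.04 at 20 min, a difference of 0.02 ± 0.09 with overlap. The differences between these genes were not tested.

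Members with known roles outside the ribosome follow. Rps6, the substrate of S6 kinase, was at 0.18, 0.48, 0.33, 0.31 and 0.38 at 4 h and at 0.13, 0.50, 0.66 and 0.07 at 20 min, positive on all 9 arrays and overlapping between the times. With the same RNA in both channels Rps6 was at 1.32 on 1HG, -1.15 on 3HG and 0.55 on 3HF. Rpl11, the partner of Rpl5 in binding Mdm2, was at -0.11, 0.09, 0.07, -0.19 and -0.13 at 4 h and between -0.13 and -0.08 at 20 min, a difference of 0.05 ± 0.08. Rps3, which also takes part in DNA repair, lay between 0.16 and 0.40 at 4 h and between -0.0046 and 0.14 at 20 min without overlap, and its SE of 0.57 takes in its value of 3.63 on 1HG. Rpl13a differed by 0.09 ± 0.87.

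Rpl30 was measured by 2 probes, and they disagreed at 4 h. The probe numbered 2192 was at 0.42, 0.35, 0.44, 0.36 and 0.18, and the probe numbered 2163 at -0.34, -0.16, -0.42, 0.12 and 0.38. At 20 min the first lay between 0.05 and 0.25 and the second between -0.11 and -0.04. The first had ribosomal protein probes on the numbers after it, and the second had none next to it. Rpl30 as the mean of both differed by 0.09 ± 0.08.

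Symbols of paralogues were measured once each. Rpl36al1 was at 0.45, 0.76, 0.60, 0.26 and 0.03 at 4 h and at 0.29, 0.24, -0.12 and -0.11 at 20 min, a difference of 0.34 ± 0.16 with overlap. Rps27l, a relative of Rps27, was at -0.12, 0.13, 0.03, -0.04 and 0.31 at 4 h and at -0.34, -0.21, -0.25 and -0.09 at 20 min, and differed by 0.28 ± 0.20. Rps27l was thus highest on pair 5, where Rps27 was lowest at that time. Whether a probe of a paralogue binds its own transcript or that of the main gene was not tested.

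The subunits differed little from each other. The small subunit median was above the large in 4 of 5 arrays at 4 h, 4 of 4 at 20 min and 2 of 3 with the same RNA. The large minus small difference of the medians was -0.03, 0.01, -0.04, -0.14 and -0.13 on pairs 1 to 5 at 4 h, -0.10, -0.05, -0.02 and -0.16 on pairs 1 to 4 at 20 min, and -0.01, 0.04 and -0.04 with the same RNA. Its mean was -0.07 ± 0.06 (SD, n = 5) at 4 h, -0.08 ± 0.06 (SD, n = 4) at 20 min and -0.0020 ± 0.04 (SD, n = 3) with the same RNA. The gap between subunits was of like size at both times, and its ranges at 4 h, at 20 min and with the same RNA overlapped. On the second array of pair 2, read as swapped dyes, the large subunit median was -0.06 and the small 0.13, where pair 2 itself had 0.27 and 0.26. Slc2a5 turned its sign between these arrays, from 1.62 to -1.66, and the small subunit median kept its sign.

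Ribosomal protein probes sit in clusters of numbers on this array. Of the 64 probes 48 fall in 12 runs of adjacent numbers, of up to 6 probes. Over the 9 arrays of 4 h and 20 min Pearson r had a median of 0.59 over 36 pairs of adjacent member probes and of 0.30 over 1898 pairs more than 100 numbers apart. Adjacent probes of other genes had a median of 0.14 over 4859 pairs. These correlations are descriptions; the pairs share arrays, and both times are pooled. Not every run was alike: in the run Rpl8, Rps29, Rpl24, Rpl37l1 and Rpl18 the pairwise r ran from -0.72 to 0.84. The members of a run are not replicates of each other.

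The run Rpl31, Rpl35 and Rpl13 (numbers 1725 to 1727) kept almost 1 profile, with run means of 0.40, 0.51, 0.46, 0.06 and -0.13 at 4 h and -0.25, -0.27, -0.43 and -0.40 at 20 min. The other genes within 10 numbers had medians of 0.14, 0.06, 0.10, 0.05 and -0.11 at 4 h and of -0.17, -0.07, 0.02 and -0.02 at 20 min. On pairs 1 to 5 of 4 h and pairs 1 and 2 of 20 min these neighbours were on the side of the run. On pairs 3 and 4 of 20 min they were near 0 while the run was not. Rpl38, Rpl5 and Rpl36al1 (numbers 2650 to 2652) were a second such run, high on pairs 2 and 3 of 4 h.

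**Figure D4:**
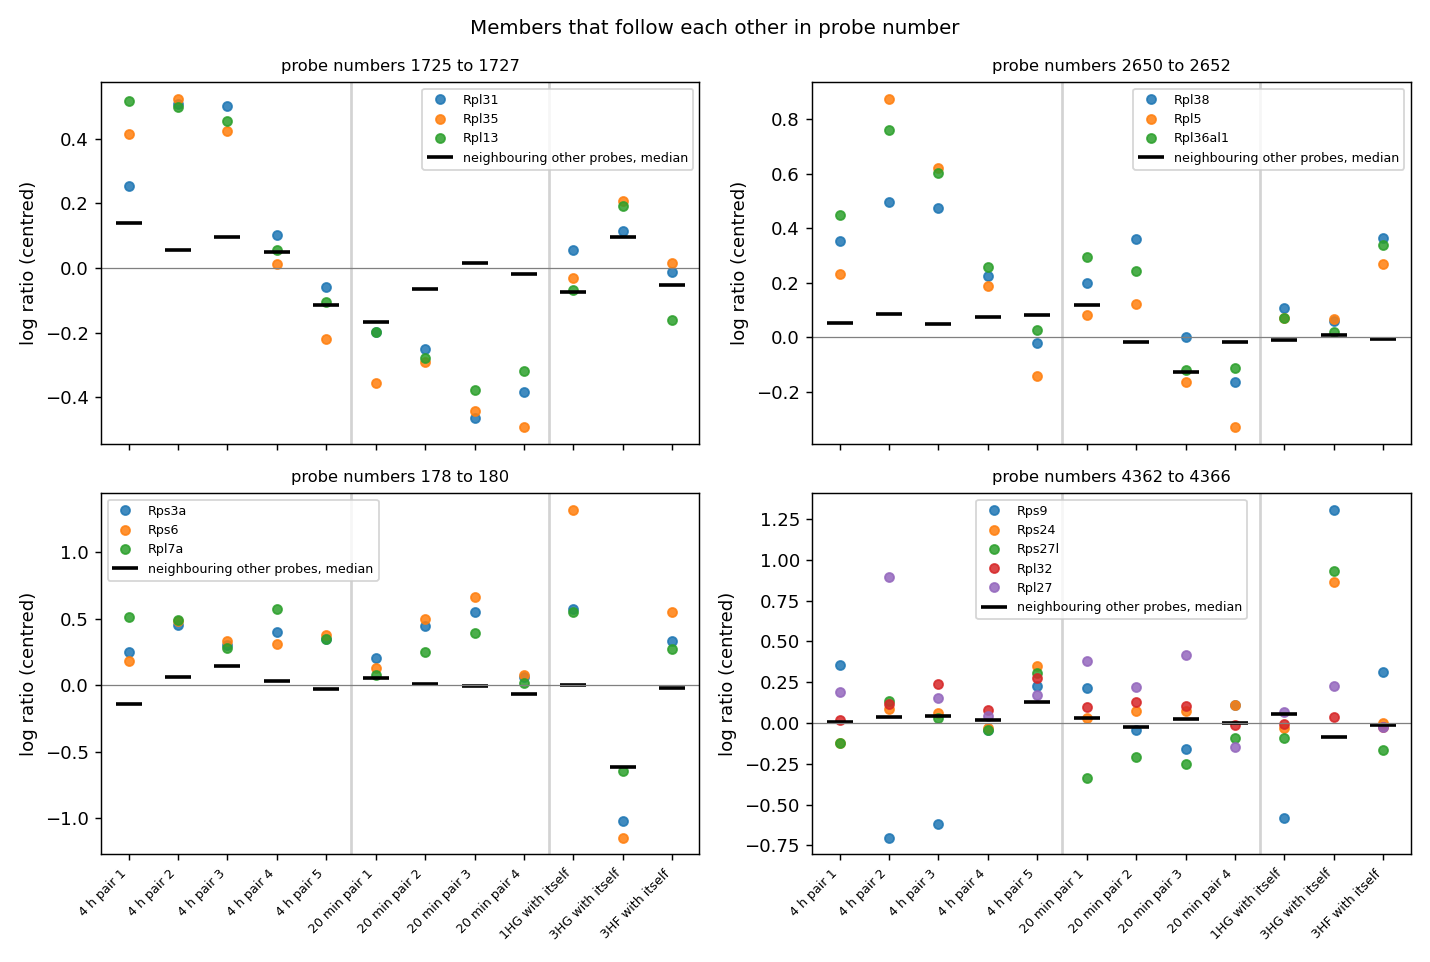
Log ratio (y axis, read as log2, centred) of members with adjacent probe numbers on the 12 arrays of the fit (x axis), for 4 runs, with black bars at the median of the other probes within 10 numbers. Rpl31, Rpl35 and Rpl13 run from 0.25 to 0.52 on pairs 1 to 3 of 4 h and from -0.49 to -0.20 at 20 min, while Rps3a, Rps6 and Rpl7a drop with their neighbours on 3HG.

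The probes around the members also shifted, by less. Non-member probes within 10 numbers of a member had medians of 0.07, 0.04, 0.10, 0.04 and 0.02 on pairs 1 to 5 at 4 h, and between -0.01 and 0.03 at 20 min. After the median of its own neighbours was subtracted from each member, the member medians at 4 h were 0.15, 0.18, 0.08, 0.10 and 0.08, and those at 20 min lay between -0.03 and 0.03. Every array at 4 h still had a higher median than every array at 20 min. With this subtraction, chosen after the data were seen, the median difference of 4 h minus 20 min was 0.08 in place of 0.17. Of the 63 members 51 were above 0, where 48.4% of all features were. At an unadjusted limma p below 0.05, 9 members were higher and 0 lower, beside 12.4% of all features in either direction. How far position on the slide enters the member values was not tested.

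Over the 63 genes the order of the log ratios was more alike among the 20 min arrays than among the 4 h arrays. Spearman's rho between arrays had a median of 0.52 over 6 pairs of arrays at 20 min and of 0.32 over 10 pairs at 4 h. Pair 5 of 4 h ranked the members more like the 20 min arrays than like the other arrays of its own time. Its median rho with the 20 min arrays was 0.45, and its rho with pairs 1 to 4 was -0.02, 0.05, -0.03 and 0.27. Pair 4 of 4 h also had rho of 0.51, 0.56, 0.42 and 0.25 with the 20 min arrays. With pairs 1, 2, 3 and 5 of its own time it had 0.30, 0.41, 0.64 and 0.27. The same-RNA array 3HF, in which no difference between samples exists, had a median rho of 0.53 with the 20 min arrays. The other same-RNA arrays were lower on most, with 0.30, 0.57, 0.34 and 0.28 for 1HG and 0.17, 0.03, -0.05 and 0.01 for 3HG. All of these share the probes and their effects on the ratio.

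The run of C and T at the start was set beside the difference of 4 h minus 20 min, as a description only. The 37 members with a run of 8 bases or more had a median difference of 0.22, with 36 of 37 above 0. The 16 with a shorter run had a median of 0.14, with 14 above 0, and the 10 without a window had 0.06. The ranges overlapped, from -0.0038 to 0.63 and from -0.09 to 0.41. Rps24, with 17 bases of C and T, was at -0.0038, and Rps19, with 4, was among the members whose arrays did not overlap.

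Other genes of translation were listed with earlier results of these data known, and no gene of these lists passed the adjusted threshold in any comparison. The 9 measured genes of ribosome assembly had a median 4 h minus 20 min difference of 0.13, with 7 above 0. Polr1a, the large subunit of the polymerase that makes ribosomal RNA, was at 0.27, 0.15, 0.38, 0.50 and 0.25 at 4 h and at -0.14, 0.06, -0.26 and 0.15 at 20 min, a difference of 0.36 ± 0.11 (limma adjusted p = 0.161). Its arrays overlapped by a hair, with the highest at 20 min just above the lowest at 4 h. The nucleolar proteins Ncl and Npm1 were at 0.22 ± 0.11 and 0.18 ± 0.11.

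The ribosomal proteins of the mitochondrion, which belong to a separate ribosome, were 3 genes with a median of 0.22. Mrps24 differed by 0.38 ± 0.12 (limma adjusted p = 0.180) and Mrpl17 by 0.22 ± 0.13, the latter without overlap. The 14 genes listed for translation initiation had a median of 0.11, with 10 above 0. Not all of them are initiation factors, since the list also holds inhibitors of initiation, the kinases Eif2ak1, Eif2ak2 and Eif2ak3 and the repressor Eif4ebp1. The 6 genes listed for elongation, among them the inhibitory kinase Eef2k, had a median of 0.05. Eef1d, of the exchange complex that reloads elongation factor 1, differed by 0.19 ± 0.08 without overlap, and Eef1a1, which delivers aminoacyl-tRNA, by -0.20 ± 0.10.

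Genes outside the ribosome whose mRNAs carry the TOP motif had medians below 0. The 8 measured ones had a median of -0.13 with 3 above 0. The smallest p belonged to Eef1d at 0.19 ± 0.08, Eef1a1 at -0.20 ± 0.10 and Npm1 at 0.18 ± 0.11. Tpt1 was at -0.14 ± 0.11. Hnrnpa1, Eef2 and Nap1l1, also below 0, had SE of 1.95, 0.81 and 0.74. These errors take in their values of 12.14, 4.94 and 4.43 on 1HG. The 11 genes of S6 kinase and mTOR signalling, of which Eif4ebp1 is also in the initiation list, had a median of -0.11 with 4 above 0. Ribosomal proteins that the symbol pattern missed, Rpsa, Fau and Rack1, were at -0.0033, 0.08 and 0.03. None of these lists was tested as a list against the members.

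**Figure D5:**
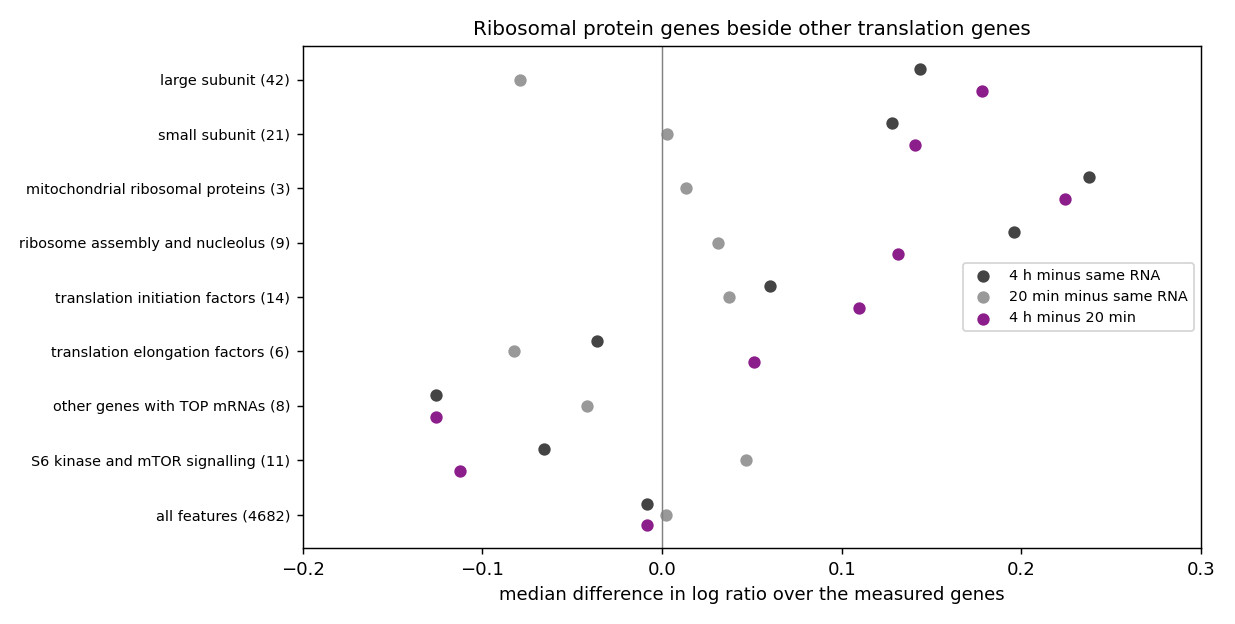
Median difference in log ratio (x axis, read as log2) over the measured genes of each list (y axis, number measured in brackets) for the comparisons 4 h minus same RNA, 20 min minus same RNA and 4 h minus 20 min. For 4 h minus 20 min the large and small subunit lie at 0.18 and 0.14, the other genes with TOP mRNAs at -0.13 and all features at -0.01. The lists of initiation and elongation factors also hold inhibitors of these steps.

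Of the 3 genes in the p53 response to ribosomal stress that were measured, Cdkn1a, an inhibitor of the cell cycle, differed by 0.39 ± 0.16 between 4 h and 20 min and Ccng1 by -0.69 ± 0.18 (limma adjusted p = 0.334 and 0.130). Markers of cell types had these values beside the members. The 5 measured markers of dividing crypt cells had a median 4 h minus 20 min difference of 0.06, with 3 above 0 and a range from -0.08 to 0.39. The 8 of enterocytes had a median of -0.20, with 3 above 0 and a range from -0.50 to 0.34. Apoa1, an apolipoprotein of absorptive cells, was lower on all 5 arrays at 4 h than on all 4 at 20 min, by -0.44 ± 0.11 (limma adjusted p = 0.126). The medians were 0.24 for 4 markers of goblet and Paneth cells, -0.20 for 5 endocrine, -0.08 for 6 smooth muscle, 0.01 for 7 neuron and glia, 0.02 for 5 immune, -0.08 for 4 endothelial and 0.00057 for 6 pancreatic genes. Their part in the values of the members was not tested.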

How the data were processed

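The authors deposited 1 table of log ratios of 2-colour arrays, read here as log2 values, with 4952 probes and 14 arrays. How the slides were scanned and normalized, which base the logarithm has and which channel is on top of the ratio is not given here. The medians of the arrays in the deposited table were already between -0.07 and 0.02. Signal intensities were not used here, dim probes are therefore included, and the number of arrays limits the precision.

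Each array was centred on its median, and probes of 1 symbol were averaged, which gave 4682 features. Symbols came from the platform annotation, where 4426 probes have 1 symbol, and the Entrez identifier of 63 of the 64 member probes is in the RefSeq table. Tests were run with lmFit and eBayes of limma 3.58.1 (R 4.3.3) in 1 fit over 3 groups: 4 h (5 arrays), 20 min (4) and same RNA (3), with 9 residual degrees of freedom and Benjamini-Hochberg adjustment over all features. The second array of pair 2 and the primer array were left out of the fit. Exact permutation tests over arrays were two-sided. Start windows were cut from RefSeq sequences of 250 bases before to 50 after each start on GRCr8. Steps were tested on simulated data.

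The members, the lists and the treatment of the second array of pair 2 were chosen with earlier results of these data known. The members to be named were, per comparison, the 4 of each subunit with the smallest p in each direction, the called ones, the stalk proteins, Rps6, Rpl5, Rpl11, Rps3, Rpl13a, and members with several probes or a paralogue's symbol. Of the 26 and 25 so named in the comparisons with the same-RNA arrays, 14 and 9 are given as differences, a choice made after their values were seen. The others are given by array values or counts, since 1 same-RNA array set many of them. Alternatives covered scaling, quantile normalization, probes kept apart, the second array of pair 2, ranges of probe numbers, neighbouring probes, a robust fit, the replicate number as a block and each array left out in turn.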

Additional observations from a re-analysis of the deposited data

Results flagged for a closer look

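A single array stood apart from the other arrays of its group by Dixon's criterion in 4 of 80 sets of arrays examined, about the 1 in 20 that chance gives. At 4 h pair 1 was the lowest array for Rpl12, at -0.062, and the highest for Rps15a, at 0.53, and for Rps2, at 0.82. Pair 5 of 4 h was the lowest for Rps10, at 0.18.

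The second array of pair 2, which entered no comparison, had a small subunit median of 0.13, above the 3 arrays with the same RNA in both channels, whose medians lay between -0.02 and 0.06. Its SD over all features was 0.82, beside 0.35 to 0.40 on pairs 1 to 5 at 4 h. Over members its SD was 0.26, beside 0.18 to 0.29 on those pairs.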

How the results depend on the processing

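The alternatives kept the signs of the large subunit medians in all 3 comparisons. The small subunit median of 4 h minus the same RNA was 0.13 and became 0.082 with arrays scaled to 1 spread, 0.085 with the second array of pair 2 averaged in with its sign turned and 0.022 as a mean over genes, and it lay between 0.097 and 0.20 with single arrays left out. For 20 min minus the same RNA the means over genes were -0.15 for the large and -0.12 for the small subunit. The small subunit median of 4 h minus 20 min was 0.14 and became 0.076 after subtraction of neighbouring probes (added after the data were seen), 0.19 over probe numbers above 750 and up to 4500, and 0.11 to 0.19 with single arrays left out. The number of all features called was 28 for 4 h minus 20 min, with 0 to 37 over the alternatives (0 with the second array of pair 2 averaged in as deposited, and 4 to 29 with single arrays left out), 3 for 4 h minus the same RNA (0 to 5) and 2 for 20 min minus the same RNA (0 to 4). The number of members called for 4 h minus 20 min was 0 to 3 with single arrays left out. The labels number the pairs at both times, but same-numbered arrays did not deviate together (r of -0.07, 0.16, -0.03 and -0.02 for numbers 1 to 4). Such values cannot show whether same-numbered pairs shared more than the number. With the replicate number as a block 1 member, Rpl35, was called (limma adjusted p = 0.0420), a fit in which pair 5 of 4 h has no partner.

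Some differences of 4 h minus 20 min near 0 changed sign. Rpl37l1 was 0.0075 on values as deposited, 0.016 with arrays scaled, 0.0020 with the second array of pair 2 averaged in as deposited and 0.023 after quantile normalization. Rps24 was 0.0046 as deposited and 0.039 with the second array of pair 2 averaged in with its sign turned, and Rps6 was 0.0046 as deposited. Rplp0 was -0.00026 with arrays scaled, -0.032 with the second array of pair 2 as deposited and -0.032 after subtraction of neighbours. Rpl30 was -0.013 for 1 of its probes kept apart. With single arrays left out the ranges were -0.078 to 0.076 for Rpl37l1, -0.074 to 0.044 for Rps24, -0.093 to 0.10 for Rps6, -0.027 to 0.054 for Rplp0 and -0.043 to 0.18 for Rpl13a. The causes were not tested.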

Other observations

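The symbols just outside the choice of members were 3 S6 kinase and 3 pseudogene probes. The probes named for pseudogenes of Rps28, Rps27a and Rps4x lay between -0.07 and 0.65, between -0.05 and 0.38 and between -0.39 and 0.65 on the 5 arrays at 4 h, and between 0.20 and 0.82, -0.13 and 0.48 and 0.07 and 0.43 on the 4 at 20 min. Unlike most members, all 3 pseudogene probes had a higher mean over these arrays at 20 min than at 4 h. The gap was small for Rps27a and Rps4x, and the ranges overlapped for each probe. The 2 probes of Rps6kb1 differed on every array at 4 h, one between 0.84 and 1.66 and the other between -0.18 and 0.50, and the first was at 7.31 on 1HG and near 1.6 on 3HG and 3HF, where both channels hold the same RNA.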
